A study of Mus musculus with 20 samples.

Results

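The genes of the proteasome, the barrel-shaped protease that degrades ubiquitin-tagged proteins, were examined in RNA from mouse heart ventricles. The members were the rows whose symbol begins with Psm, followed by a letter from a to f and a number, and whose normalized value reached 10 in at least 5 of 20 libraries. Of 44 such rows, 43 passed, out of 13548 genes that passed the same filter and 21705 rows in all. Psmb11, the beta subunit known from the thymus, was left out with a median of 3.93 and a highest value of 8.61. Psma8, an alpha subunit known from the testis, lay just inside with a median of 10.6 and 12 libraries at 10 or above.

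The study set mice labelled Acsl1H-/-, in which the long-chain acyl-CoA synthetase gene Acsl1 was deleted after tamoxifen, against Acsl1flox/flox littermates, and crossed genotype with rapamycin, an inhibitor of the kinase mTOR. The 4 groups held 5 libraries each: control with vehicle, knockout with vehicle, control with rapamycin and knockout with rapamycin. All were male mice on a C57Bl/J6 background, 6 to 8 weeks old when both genotypes received tamoxifen at 75 mg/kg on 4 days. Rapamycin at 1 mg/kg or its vehicle was injected daily for 2 weeks, and hearts were taken 2 weeks after tamoxifen. Which Cre line drives the deletion, and in which cells, is not stated in the labels. Replicates count as separate animals only as far as the submitters' design text says so, and otherwise p-values measure the spread between these samples.

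The 20S core of the proteasome is a stack of rings, with alpha subunits in the outer rings that gate entry and beta subunits in the inner rings that include the proteolytic sites. The 19S cap binds ubiquitin chains, removes them and unfolds the substrate with a ring of ATPases, and alternative caps (PA28, PA200) open the core without ubiquitin. Interferon-gamma induces a set of beta subunits that replace the constitutive catalytic ones and shape peptides for antigen presentation. In heart muscle the ubiquitin and proteasome system removes damaged sarcomere proteins.

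The libraries held an implied 11.5 to 21.1 M reads, judged from the step between low values. Acsl1 itself was lower in knockout than in control hearts without overlap in both arms, with 740.5 to 1682 against 6373 to 13431 under vehicle and 631 to 1950 against 10518 to 16661 under rapamycin (two-sided exact permutation p = 0.00794 in each arm, the smallest that 5 against 5 libraries allow). Control vehicle libraries 1 and 3 stood apart from the rest on the first principal component of all genes, at 73.4 and 84.6 against -41.7 to 19.3 in the other 18. Their long transcripts read low and their short transcripts high: the difference between the longest and shortest quartile of genes, called the length score below, was -1.05 and -1.17 on the log2 scale, against -0.43 to 0.56 elsewhere. Values without these 2 libraries are given beside the changes that use the control vehicle group. Cardiomyocyte markers summed to between 1742500 and 2329380 per library with none of 8 genes at 0. The sums in control vehicle 1 and 3 were 2266880 and 2329380, and the highest sum outside the control vehicle group was 2066730. In these bulk samples, fewer cells of a type and less RNA per cell cannot be told apart.

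Promoter sequence was read for 36 of the 43 members in the RefSeq table of build GRCm38.p6. Psma8, Psmb1, Psmb2, Psmb7, Psmc3, Psmd3 and Psmd7 had no entry. The windows below are the 250 bases before the gene start, 5′ to 3′ on the gene's strand, with capitals marking TGACNNNGC on either strand, the core of the antioxidant response element through which Nfe2l1 and Nfe2l2 are known to raise proteasome genes. The 4 shown are the members with these letters whose values are given library by library below. They include the lowest (Psmb5) and the highest (Psmd12) log2 change between genotypes under vehicle. Psmb5 lies at chr14:54617996-54618245 on the minus strand, Psmb6 at chr11:70525107-70525356, Psmc6 at chr14:45329574-45329823 and Psmd12 at chr11:107479278-107479527, the last 3 on the plus strand.
Psmb5: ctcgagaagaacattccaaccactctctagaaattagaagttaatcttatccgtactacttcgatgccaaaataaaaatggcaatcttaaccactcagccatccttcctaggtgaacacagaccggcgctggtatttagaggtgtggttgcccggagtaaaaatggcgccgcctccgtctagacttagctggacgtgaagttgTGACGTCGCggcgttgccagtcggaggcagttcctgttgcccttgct
Psmb6: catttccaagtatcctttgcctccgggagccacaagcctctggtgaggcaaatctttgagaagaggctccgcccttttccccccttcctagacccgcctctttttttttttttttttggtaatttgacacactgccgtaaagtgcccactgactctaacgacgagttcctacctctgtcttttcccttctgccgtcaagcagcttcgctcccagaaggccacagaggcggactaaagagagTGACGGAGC
Psmc6: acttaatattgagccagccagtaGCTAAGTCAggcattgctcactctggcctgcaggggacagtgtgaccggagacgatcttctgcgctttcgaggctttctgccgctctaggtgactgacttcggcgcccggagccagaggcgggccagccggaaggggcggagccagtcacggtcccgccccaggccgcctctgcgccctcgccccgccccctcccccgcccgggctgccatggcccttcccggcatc
Psmd12: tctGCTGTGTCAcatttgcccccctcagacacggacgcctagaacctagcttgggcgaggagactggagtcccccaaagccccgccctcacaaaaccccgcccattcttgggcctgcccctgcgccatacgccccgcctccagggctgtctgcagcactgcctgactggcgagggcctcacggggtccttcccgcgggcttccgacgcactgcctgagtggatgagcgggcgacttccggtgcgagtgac
The match began 47 bases before the start in Psmb5, 9 in Psmb6, 227 in Psmc6 and 247 in Psmd12, and lay on the opposite strand in Psmc6 and Psmd12. Psmd9 was the only other member with a match. The 5 members with TGACNNNGC were 13.9% of 36, against 11.5% of all 27025 genes with a window of that length. CCAAT, the box bound by NF-Y, was present on either strand in 13 members (36.1%, against 37.5% of all genes), and GGGCGG, the GC box bound by Sp factors, in 21 (58.3%, against 35.4%). The 27025 genes were not filtered by expression, as the members were. Overlaps between the 3 motifs were not removed, and a match describes letters in a window, not a bound site.

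Levels were compared between genes as normalized value per kilobase of transcript. The constitutive beta ring, Psmb1 to Psmb7, was the group with the highest median, 3701 per kb: its 7 gene medians over 20 libraries ran from 2225 to 4427 per kb, a 1.99-fold range, with Psmb6 and Psmb7 first and second among all members. The alpha ring was less even. Psma6 stood at 4202 and Psma7 at 3323 per kb, while Psma5, Psma3 and Psma2 stood at 656, 703 and 739, so that the 7 alpha genes other than Psma8 spanned 6.40-fold. This spread depends on the annotated lengths, which were not taken from the RSEM run. Psma2, with a median value of 2151, was divided by 2.91 kb, and Psma5, with 813, by 1.24 kb. Psma8 had 6.27 per kb, which is below the median of 134 over the 13118 tested genes with a length.

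Among the 6 ATPases of the 19S base, Psmc3 stood highest at 4183 per kb and Psmc6 lowest at 960.5. The 11 non-ATPase subunits ran from 518 (Psmd11) to 2420 (Psmd4, a receptor for ubiquitin chains), with Psmd14, the deubiquitinase of the cap, at 684. The chaperones that assemble the base, Psmd5, Psmd9 and Psmd10, lay at 142 to 193 per kb, near the median of all genes. PA28 alpha, Psme1, stood at 2717 per kb and its partner Psme2 at 844, though the 2 proteins form 1 ring. Psme3, the nuclear PA28 gamma, had 756, Psme4 (PA200) 1307 and Psmf1 (PI31, an inhibitor of the core in vitro) 188 per kb.

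**Figure D1:**
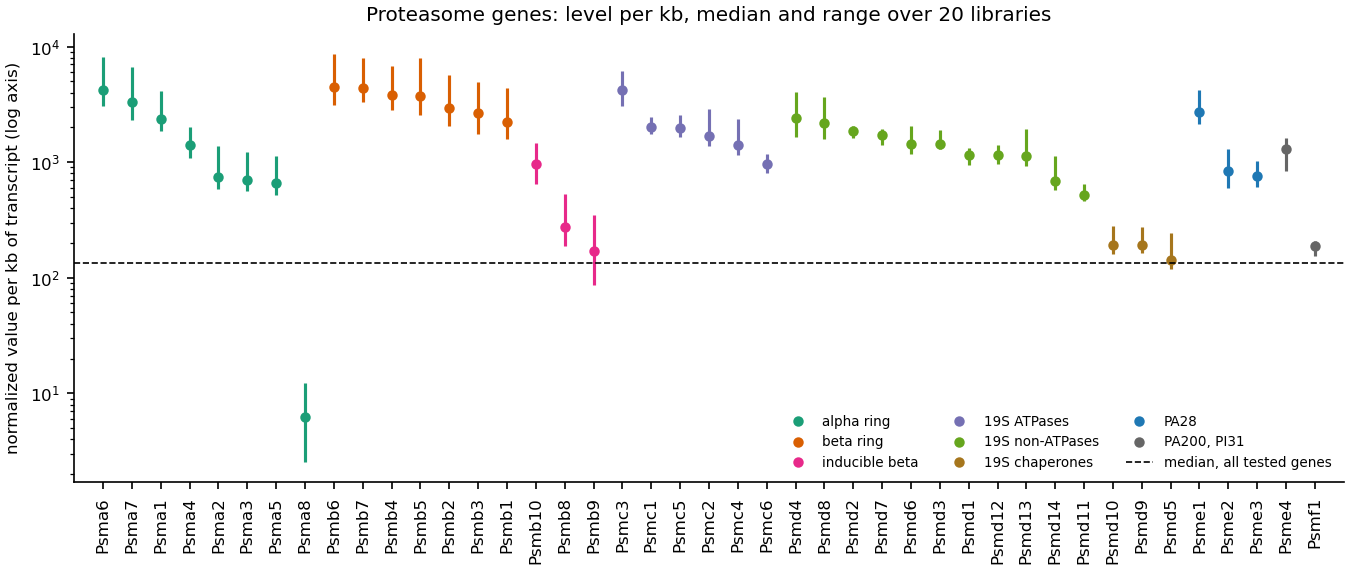
Normalized value per kb of transcript (log axis) for the 43 members, grouped by role, with points at the median and lines from the lowest to the highest of 20 libraries. The 7 beta ring genes lie between 2225 and 4427, Psma8 lies at 6.27, and the dashed line marks the median of all tested genes at 134.

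Many members, mainly of the 20S rings, varied together from library to library, and others did not. Removing the members' mean per library lowered the median standard deviation of the beta ring genes from 0.40 to 0.20. That of the non-ATPases rose from 0.14 to 0.20. Averaged over the 43 members, the log2 deviation from the 20-library mean was 0.39 and 0.54 in control vehicle libraries 1 and 3, and -0.27 to 0.21 in the other 18. In these 2 libraries 26 members (60.5%) lay above all the other 18 libraries, against 16.3% of all tested genes, and none lay below them all, against 21% of all tested genes. The 2 libraries were picked from a component to which the members contribute, so these shares are a description. All 7 beta ring genes and 7 of 8 alpha ring genes lay above, but 1 of 6 ATPases, 6 of 11 non-ATPases and neither Psme4 nor Psmf1.

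The beta ring carried the widest excursion, a median of 0.97 on the log2 scale between the 2 libraries and the rest. The ATPases had a median of 0.32 and the non-ATPases 0.35. Psme4 lay at the other end, 0.42 lower in the 2 libraries than in the others, followed by Psmd1 at -0.20, Psmd12 at -0.15 and Psmd7 at -0.12. Across all 20 libraries the steadiest member was Psmd2, the scaffold that receives shuttle proteins, with a standard deviation of 0.085 on the log2 scale. The least steady with values far above the filter were Psmb9 and Psmb8, at 0.59 and 0.47.

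**Figure D2:**
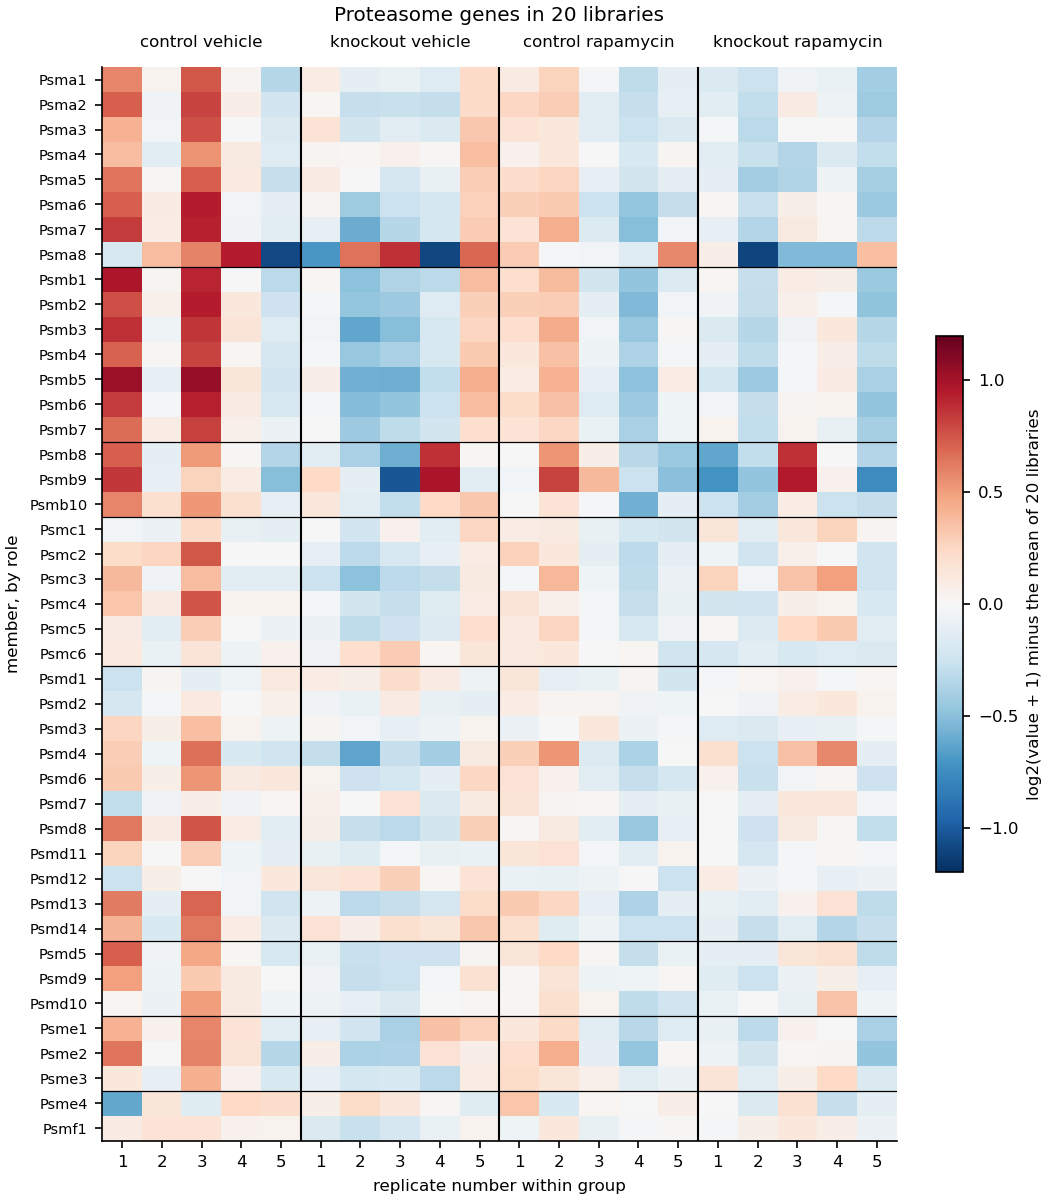
Deviation of log2(value + 1) from the 20-library mean for 43 members (rows, by role, separated by lines) in 20 libraries (columns, by group and replicate number); the colour scale ends at 1.2 in either direction. Control vehicle 1 and 3 are high through the alpha and beta rings, and Psmb8 and Psmb9 are high in knockout vehicle 4 and knockout rapamycin 3.

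Members are short transcripts. Their median length was 1.54 kb against 2.93 kb over all tested genes with a length, 30 of the 43 fell in the shortest quartile of those genes (up to 1.89 kb) and 2 in the longest. Over the 43 members, transcript length and the difference between control vehicle libraries 1 and 3 and the other 18 had a Spearman rho of -0.62, where all points share the same 20 libraries. The length score was computed from the same values that are tested, and the 30 short and 2 long members are among the genes that define it. The part of length in the members' changes was not tested on other libraries, and the fit with the length score as a covariate is given beside each comparison.

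**Figure D3:**
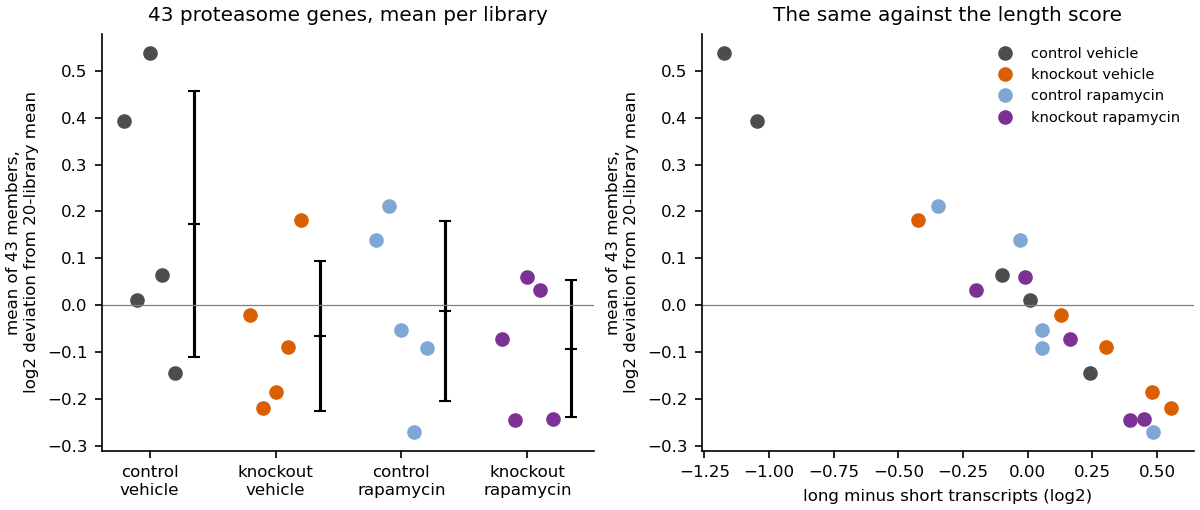
Left, the mean log2 deviation of 43 members in each of the 20 libraries by group, with the group mean and SD (n = 5) as a dash and bar; right, the same values against the length score (long minus short transcripts, log2). Control vehicle 1 and 3, at 0.39 and 0.54, have the lowest length scores, -1.05 and -1.17.

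The first comparison sets knockout against control hearts under vehicle, both after tamoxifen. What Cre itself adds to the contrast was not tested. Of the 43 members, 36 lay lower and 7 higher in knockout, with a median log2 change of -0.24 against 0.072 over all tested genes. Over all tested genes 43.5% lay lower. No member passed the limma threshold of an adjusted p of 0.05 (lowest 0.1001, for Psmf1), where 0.244% of all tested genes did. At an unadjusted p under 0.05 the count was 16 lower and 0 higher among members, against 12.1% lower and 19.8% higher among all genes. All 7 beta ring genes lay lower by 0.42 to 0.57 on the log2 scale, 6 of them at an unadjusted p under 0.05.

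Psmb5 and Psmb3 had the lowest log2 changes among the members in this comparison. Psmb5 is the catalytic subunit with chymotrypsin-like activity, and Psmb3 is a subunit of the ring without catalytic activity.
Psmb5 read 7108, 3240.4, 7127, 3839 and 2951 in the control vehicle libraries, against 3660.3, 2323, 2308, 2818 and 4681 in knockout vehicle. Under rapamycin Psmb5 read 3675, 4620.0, 3237, 2462 and 3675 in control hearts, against 2982, 2555, 3414, 3714 and 2636 in knockout hearts. Control vehicle 1 and 3 stand alone at 7108 and 7127, and the other 18 libraries lie between 2308 and 4681. The vehicle groups overlapped (log2 change -0.57, standard error 0.25, limma adjusted p = 0.134, two-sided exact permutation p = 0.143), and the 95% interval of the change was -1.09 to -0.047.
Psmb3 read 3810.3, 1999, 3768, 2311 and 1861 in the control vehicle libraries, against 2029.9, 1349, 1451, 1809 and 2483 in knockout vehicle. Under rapamycin Psmb3 read 2383, 2830.3, 2020.2, 1513 and 2093 in control hearts, against 1842, 1636, 2017, 2266 and 1633 in knockout hearts. The same 2 control libraries are highest, and the groups overlapped (log2 change -0.56, standard error 0.21, limma adjusted p = 0.111).

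The remaining catalytic subunits, Psmb6 with caspase-like and Psmb7 with trypsin-like activity, had the same 2 highest libraries as Psmb5. Psmb6 read 6422, 3553, 6854, 3836 and 3139 in the control vehicle libraries, against 3555, 2489, 2579, 3003 and 4626 in knockout vehicle. Under rapamycin Psmb6 read 4163, 4572, 3209.9, 2652 and 3447 in control hearts, against 3512, 2937, 3668, 3698 and 2588 in knockout hearts. Knockout vehicle 5 was the highest knockout library, as it was for Psmb5. Psmb7 read 8312, 5536, 9211, 5444 and 4948 in the control vehicle libraries, against 5184, 3848, 4231, 4467 and 5986 in knockout vehicle. Under rapamycin Psmb7 read 5837, 6199.8, 4945, 3965 and 5016 in control hearts, against 5364, 4245, 5352, 4897 and 3957 in knockout hearts. Both had overlapping vehicle groups, with a log2 change of -0.51 (adjusted p = 0.126) for Psmb6 and -0.47 (adjusted p = 0.106) for Psmb7 by limma. Psmb5, Psmb6 and Psmb7 have annotated pseudogenes, and how the authors' estimates divided shared reads is not known.

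In the alpha ring all 8 genes lay lower, with a median of -0.22 and Psma7 lowest at -0.53, and 2 reached an unadjusted p under 0.05. Without control vehicle 1 and 3 the alpha ring median was 0.032 with 3 of 8 lower, and with the length score 0.10 with 1 of 8 lower. The ATPases had a median of -0.25, with 4 of 6 lower, and the non-ATPases -0.16, with 7 of 11 lower. Without the 2 libraries these medians were -0.097 and -0.028. The highest values belonged to 2 non-ATPase subunits, Psmd12, which belongs to the lid of the cap, and Psmd1, a large scaffold of its base. Psmd12 read 1839, 2303, 2186, 2145 and 2396 in the control vehicle libraries, against 2421, 2467, 2676, 2215 and 2467 in knockout vehicle. Under rapamycin Psmd12 read 2078, 2067, 2107, 2198 and 1835 in control hearts, against 2342, 2090.4, 2182, 2055 and 2094 in knockout hearts. The vehicle groups overlapped in part, with control vehicle 1 lowest (log2 change 0.18, standard error 0.085, limma adjusted p = 0.161; two-sided exact permutation p = 0.0476). Psmd1 read 2967, 3631, 3304, 3431 and 3859 in the control vehicle libraries, against 3774, 3739, 4119, 3810.0 and 3412 in knockout vehicle. Under rapamycin Psmd1 read 3929, 3313, 3364, 3637 and 3052 in control hearts, against 3508, 3618, 3682, 3497 and 3600.0 in knockout hearts. Control vehicle 1 was the lowest library of all 20 for Psmd1, and the change was 0.14 (limma adjusted p = 0.269). Leaving out control vehicle 1 and 3, the changes were 0.10 for Psmd12 and 0.05 for Psmd1.

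Without control vehicle 1 and 3, the median of the 43 members was -0.055, with 30 lower, where 5905 of 13548 tested genes were lower. The beta ring median was then -0.14 with all 7 genes still lower. Psmb5, Psmb3, Psmb6 and Psmb7 stood at -0.13, -0.20, -0.14 and -0.18. With the length score as a covariate the median of the 43 members was 0.036, with 14 lower, and the beta ring median 0.010, with 2 of 7 lower. Over all tested genes the median was 0.034 without the 2 libraries and 0.032 with the length score. The 3283 genes in the shortest quartile over all tested genes had a median of -0.23 in this comparison and the longest quartile 0.39, beside -0.29 for the 30 short members and -0.16 for the 13 longer ones. Without the 2 libraries the shortest quartile had a median of -0.054 and the 30 short members -0.060. Spearman's rho of length with the change was 0.52 over the 43 members and 0.53 over 13118 genes, from the same 10 libraries, and 0.17 over the members without the 2 libraries. Within the 4 sequencing pools, each holding at least 1 library of every group, the members' median was -0.26, -0.22, -0.64 and -0.031. Leaving out control vehicle 5 brought 13 members past the threshold beside 22.8% of all genes, and leaving out knockout vehicle 5 brought 10 beside 18.9%.

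**Figure D4:**
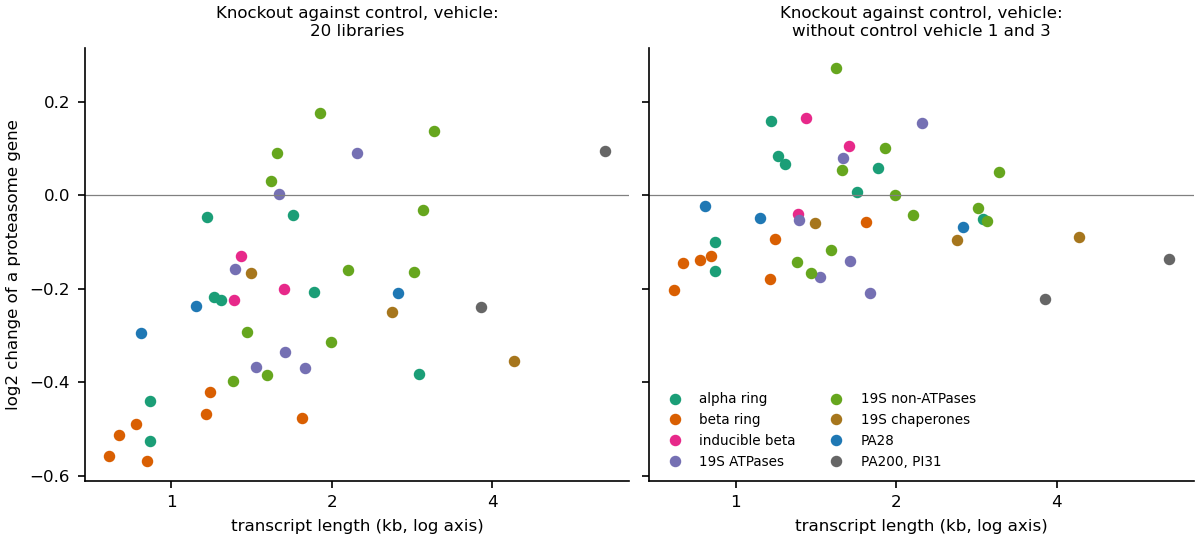
Log2 change of each of the 43 members, knockout against control under vehicle, against transcript length (kb, log axis), coloured by role, with all 20 libraries (left) and without control vehicle 1 and 3 (right). At left the beta ring lies between -0.57 and -0.42; at right its median is -0.14 and the median of all 43 members is -0.055.

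Among the 43 members, Psmf1 had the smallest limma p of the comparison and the only vehicle groups that did not overlap. Psmf1 read 752, 787, 787, 727 and 724 in the control vehicle libraries, against 623, 582, 610.3, 665 and 723 in knockout vehicle. Under rapamycin Psmf1 read 679, 767, 662, 690.0 and 708 in control hearts, against 697, 737, 769.8, 742 and 669 in knockout hearts. The gap is narrow, since the highest knockout library read 723 and the lowest control library 724. Its vehicle means were 641 ± 55.0 in knockout and 755 ± 30.5 in control (SD, n = 5; log2 change -0.24, standard error 0.081, limma adjusted p = 0.1; two-sided exact permutation p = 0.00794, the smallest possible). This was 1 member of 43, where 0.871% of all genes lay lower and 1.45% higher without overlap. No member lay higher without overlap. Without control vehicle 1 and 3 the change was -0.22.

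The second comparison sets knockout against control hearts under rapamycin. The members' median was -0.088 against -0.020 over all genes, with 11 higher and 32 lower, and no member was past the limma threshold (lowest adjusted p = 0.9996, against 0.0221% of all genes called). At an unadjusted p under 0.05, 1 member was lower and 0 higher, against 1.72% and 1.25% of all genes (2.97% in all). No member had genotypes that did not overlap, where 0.546% of all genes lay lower and 0.332% higher in that way. The alpha and beta rings lay lower in all 15 genes, with medians of -0.17 and -0.13, where 55.7% of all genes lay lower. These genes share the same libraries and are not replicates of each other. The non-ATPases had a median of 0.020. Within pools the members' median was -0.43, -0.016, 0.12 and -0.027. With the length score it was -0.022, against -0.025 over all genes.

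The extremes here were Psma8 and Psma5 at the low end and Psmc3 and Psmc1 at the high end. Psma8 read 8.93, 13.7, 16.2, 20.9 and 4.35 in the control vehicle libraries, against 5.99, 16.9, 19.9, 4.32 and 17.3 in knockout vehicle. Under rapamycin Psma8 read 13.1, 10.2, 10.1, 9.20 and 16.0 in control hearts, against 11.0, 4.30, 6.87, 6.87 and 13.6 in knockout hearts. These values sit at a few reads each, and the genotypes overlapped (log2 change -0.48, standard error 0.44, limma adjusted p = 0.9996). Psma5 read 1342, 867, 1406, 930.0 and 705 in the control vehicle libraries, against 915, 854, 744, 805 and 1050.2 in knockout vehicle. Under rapamycin Psma5 read 994, 1024, 802, 733 and 795 in control hearts, against 796, 639.9, 667, 821 and 649 in knockout hearts. Psma5, a subunit of the alpha ring, overlapped between genotypes (log2 change -0.28, standard error 0.17, limma adjusted p = 0.9996). Psmc1 read 3167, 3079.9, 3812, 3051 and 2991 in the control vehicle libraries, against 3246, 2770.4, 3368, 2941 and 3844 in knockout vehicle. Under rapamycin Psmc1 read 3458, 3490.3, 3046, 2808 and 2778 in control hearts, against 3577, 2974, 3553, 3900.3 and 3324 in knockout hearts. Psmc1, an ATPase of the base, overlapped as well (log2 change 0.15, standard error 0.11, limma adjusted p = 0.9996), with knockout rapamycin 4, knockout vehicle 5 and control vehicle 3 highest.

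Rapamycin against vehicle in control hearts shares the control vehicle group with the first comparison. The members' median was -0.19 against 0.070 over all genes, with 5 higher and 38 lower, and no member passed by limma (lowest adjusted p = 0.328, where 0% of all genes were called); 4 were lower and 0 higher at an unadjusted p under 0.05, against 4.32% and 10.6% of all genes. No member lay without overlap, where 0.59% of all genes lay lower and 0.871% higher in that way. Without the 2 libraries the median was 0.021 with 16 lower, against 0.039 over all genes. With the length score it was 0.030, against 0.054 over all genes. Within pools it was -0.14, -0.024, -0.66 and 0.030.

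Psmd8 and Psma6 were lowest in that comparison. Psmd8 read 5047, 3496, 5506, 3475 and 2984 in the control vehicle libraries, against 3412, 2695, 2604, 2790.1 and 3960.2 in knockout vehicle. Under rapamycin Psmd8 read 3295, 3507, 2958, 2374 and 3049.8 in control hearts, against 3259, 2740.3, 3505, 3296 and 2653 in knockout hearts. Psmd8, a lid subunit, had its 2 highest values in control vehicle 1 and 3 (log2 change -0.40, standard error 0.16, limma adjusted p = 0.33; -0.14 without them). Psma6 read 6344, 4122, 7422, 3778 and 3565 in the control vehicle libraries, against 3946, 2874, 3231, 3330.3 and 4671 in knockout vehicle. Under rapamycin Psma6 read 4708, 4797, 3222, 2798 and 3158 in control hearts, against 3926, 3214, 4043, 3907 and 2831 in knockout hearts. Psma6, an alpha ring subunit, also had its 2 highest values there (log2 change -0.40, standard error 0.20, limma adjusted p = 0.338; -0.066 without them). The highest were Psme4 and Psmd7. Psmd7 read 2201, 2637, 2854, 2639 and 2745 in the control vehicle libraries, against 2829, 2714, 3046, 2397 and 2920.4 in knockout vehicle. Under rapamycin Psmd7 read 3022, 2767, 2735, 2519.7 and 2546 in control hearts, against 2712, 2494, 2948, 2974 and 2649 in knockout hearts. Psmd7 forms a pair with Psmd14 in the lid, and its change was 0.058 (limma adjusted p = 0.73; 0.021 without the 2 libraries).

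Psme4 read 5464, 9220.2, 7541, 9885 and 9649 in the control vehicle libraries, against 8789, 9763, 9203, 8442 and 7543 in knockout vehicle. Under rapamycin Psme4 read 10527, 7390.5, 8526, 8316 and 8813 in control hearts, against 8353, 7433, 9485, 6887 and 7777 in knockout hearts. Psme4, which encodes PA200, had its lowest value in control vehicle 1. Its change with rapamycin in control hearts was 0.085 with all libraries and -0.15 without control vehicle 1 and 3, and neither passed by limma (adjusted p = 0.75 with all libraries). Psme4 has the longest transcript of the members, 6.49 kb.

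Rapamycin against vehicle in knockout hearts gave values on both sides of 0. The members' median was -0.0030, with 21 higher and 22 lower, against -0.016 over all genes. No member passed by limma (lowest adjusted p = 0.404, where 0.00738% of all genes were called). At an unadjusted p under 0.05, 3 members were higher and 4 lower, against 2.3% and 3.42% of all genes (5.71% in all). In 3 members, Psmd14, Psmc6 and Psma4, every rapamycin library lay below every vehicle library, where 1.23% of all genes did so. No control vehicle library enters these differences or counts of overlap, but all 20 libraries enter the spread behind the limma p-values and the slope of the length score.

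Psmd14 read 1489, 993, 1738, 1192 and 997 in the control vehicle libraries, against 1271, 1188, 1282, 1240.2 and 1410.0 in knockout vehicle. Under rapamycin Psmd14 read 1286, 1015, 1075, 939.8 and 938 in control hearts, against 1033, 928, 1027, 883 and 926 in knockout hearts. In knockout hearts the vehicle libraries span 1188 to 1410.0 and the rapamycin libraries 883 to 1033 (log2 change -0.41, standard error 0.14, limma adjusted p = 0.462; two-sided exact permutation p = 0.00794, the smallest possible). Groups that do not overlap always give that exact p, which is not adjusted over members and adds nothing to the lack of overlap. The control groups overlapped, with a change of -0.26 (adjusted p = 0.342), and the difference between the 2 rapamycin effects was -0.15 (95% interval -0.55 to 0.25, limma adjusted p = 0.709). Its 2 highest libraries are control vehicle 1 and 3, and without them the change in control hearts was -0.018 and the difference -0.40.

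Psmc6 read 2308, 2019, 2374, 2049 and 2210.4 in the control vehicle libraries, against 2066, 2452, 2634, 2164 and 2363 in knockout vehicle. Under rapamycin Psmc6 read 2316, 2323, 2128, 2169 and 1809.6 in control hearts, against 1858, 1938, 1871, 1912 and 1886 in knockout hearts. The 5 knockout rapamycin libraries lie within 1858 and 1938, below all 5 knockout vehicle libraries (log2 change -0.30, standard error 0.088, limma adjusted p = 0.404; two-sided exact permutation p = 0.00794). In control hearts the change was -0.031 (0.034 without control vehicle 1 and 3), and the interaction was -0.27 (95% interval -0.53 to -0.0066, limma adjusted p = 0.523). Psmc6 is an ATPase of the base whose promoter is printed above.

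Psma4, an alpha ring gene outside the rule for single values and chosen after its values were seen, also had knockout groups that did not overlap. Psma4 read 2060.3, 1456, 2325, 1721 and 1434 in the control vehicle libraries, against 1636, 1629.7, 1656, 1615 and 2048 in knockout vehicle. Under rapamycin Psma4 read 1659.8, 1747, 1596, 1406 and 1635 in control hearts, against 1456, 1324, 1253, 1414 and 1299 in knockout hearts. The highest knockout rapamycin library, 1456, lay under the lowest knockout vehicle library, 1615 (log2 change -0.34, standard error 0.12, limma adjusted p = 0.548).

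Psmd4 and Psmc3 lay higher with rapamycin in knockout hearts. In control hearts their changes were -0.043 and -0.096 with control vehicle 1 and 3 included, which read highest of the control vehicle libraries in both. Without those libraries both changes in control hearts turned positive, though they stayed smaller than in knockout hearts. Psmd4 read 4096, 3217, 5288, 2955 and 2842 in the control vehicle libraries, against 2741, 2151, 2755, 2522 and 3602 in knockout vehicle. Under rapamycin Psmd4 read 4082, 4824, 2983, 2568 and 3343 in control hearts, against 3828, 2798, 4256, 4991 and 3093 in knockout hearts. In the knockout, 3 of 5 rapamycin libraries lay above all vehicle libraries (log2 change 0.45, standard error 0.20, limma adjusted p = 0.823; two-sided exact permutation p = 0.0476). Psmc3 read 9299, 6876, 9169, 6428 and 6433 in the control vehicle libraries, against 5939, 5045, 5689.9, 5798 and 7649 in knockout vehicle. Under rapamycin Psmc3 read 7013, 9358, 6810.3, 5748 and 6763 in control hearts, against 8499, 6901, 9000.0, 9962 and 5997 in knockout hearts. For Psmc3 the groups overlapped likewise (log2 change 0.41, standard error 0.16, limma adjusted p = 0.668; two-sided exact permutation p = 0.0476). With the length score as a covariate, 6 members passed the limma threshold in this comparison beside 1.71% of all genes: Psmd14 at -0.43, Psma4 at -0.36, Psma5 at -0.32 and Psmc6 at -0.30 were lower, and Psmd4 at 0.42 and Psmc3 at 0.38 higher. The score is taken from the same values, and none of these 6 members passed in the main fit. The members' median within pools was -0.24, 0.16, 0.087 and 0.040.

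**Figure D5:**
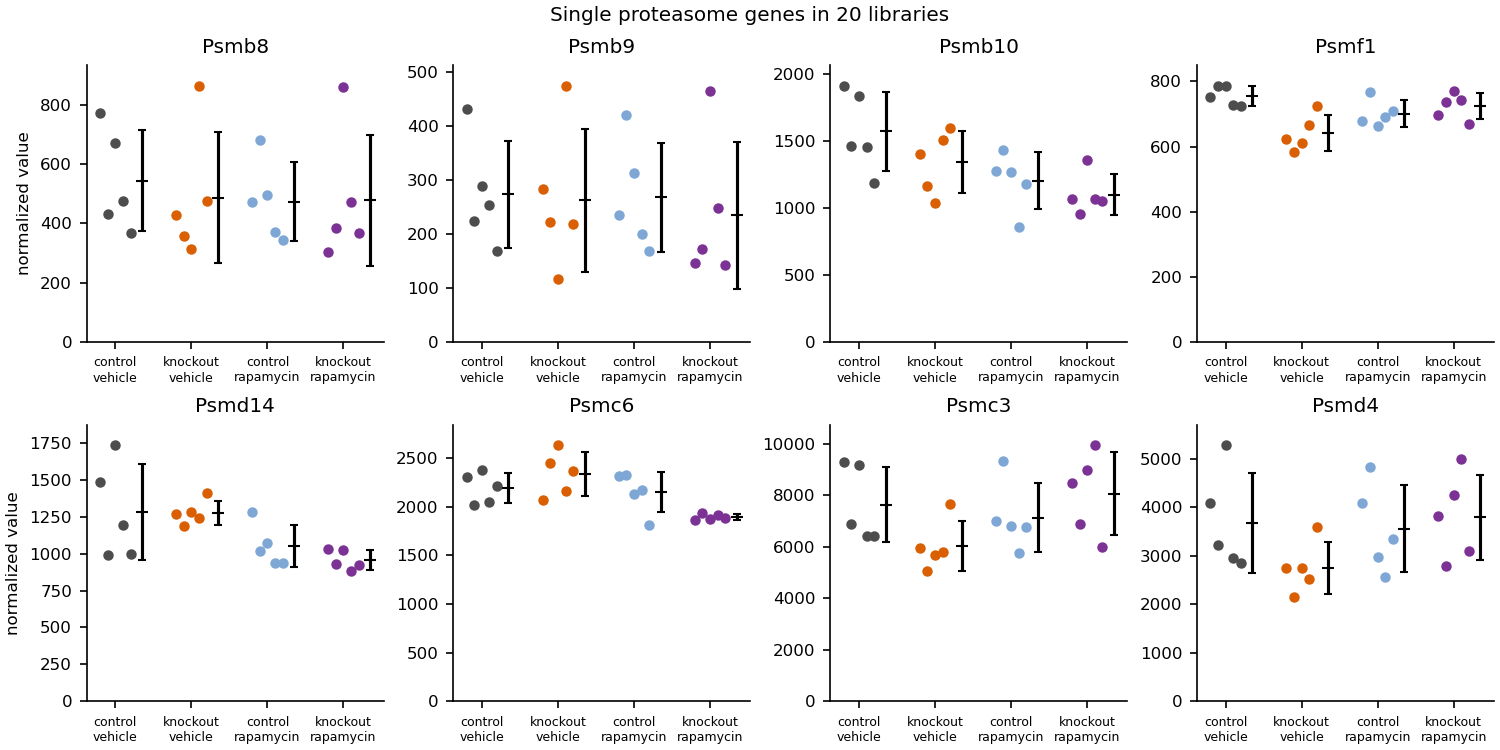
Normalized values of 8 members in 20 libraries by group, with the group mean and SD (n = 5) as a dash and bar. Psmd14 and Psmc6 in knockout rapamycin lie below knockout vehicle without overlap, and Psmb8 and Psmb9 are highest in knockout vehicle 4 (864 and 475), next to which knockout rapamycin 3 stands at 861 and 466.

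The inducible catalytic subunits Psmb8 and Psmb9 had single high libraries in several groups. Psmb8 read 772, 432, 671, 475 and 369 in the control vehicle libraries, against 427, 357, 312, 864 and 474 in knockout vehicle. Under rapamycin Psmb8 read 471, 680.4, 497, 372 and 345 in control hearts, against 304, 383, 861, 471 and 367 in knockout hearts. Psmb8, which takes the place of Psmb5 in the immunoproteasome, was highest in knockout vehicle 4 and knockout rapamycin 3. Psmb9 read 433, 224, 290.0, 255 and 168 in the control vehicle libraries, against 283, 223, 117, 475 and 218 in knockout vehicle. Under rapamycin Psmb9 read 236, 422, 314, 201 and 169 in control hearts, against 146, 172, 466, 249 and 142 in knockout hearts. Psmb9, which takes the place of Psmb6, was highest in the same 2 libraries. Under vehicle the genotypes overlapped in both, with a log2 change of -0.20 (95% interval -0.81 to 0.41, limma adjusted p = 0.638) for Psmb8 and -0.13 (95% interval -0.88 to 0.62, limma adjusted p = 0.814) for Psmb9. Both lay higher in knockout without control vehicle 1 and 3, at 0.11 and 0.16, and the median of the 3 inducible subunits turned from -0.20 to 0.11, and to 0.22 with the length score. Within pools the median of these 3 was -0.26, -0.27, -0.80 and 1.23, the last from knockout vehicle 4 against control vehicle 5.

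Psmb10 read 1911, 1462, 1831, 1458 and 1189 in the control vehicle libraries, against 1398, 1167, 1038, 1507 and 1597 in knockout vehicle. Under rapamycin Psmb10 read 1278, 1434, 1267, 856 and 1178 in control hearts, against 1065, 956, 1356, 1067 and 1048 in knockout hearts. Psmb10, which takes the place of Psmb7, was highest in control vehicle 1 and 3. With rapamycin it had a change of -0.38 in control and -0.28 in knockout hearts, with overlap in both, and averaged over genotypes -0.33 (limma adjusted p = 0.33). Without control vehicle 1 and 3 the change in control was -0.20, the average -0.24, and the median of the 3 inducible subunits in control hearts turned from -0.19 to 0.12. Per kilobase, Psmb8 amounted to 5.19% to 16.9% of Psmb5 across the 20 libraries, with a median of 7.22%. Psmb9 amounted to 2.45% to 9.34% of Psmb6 (median 3.82%) and Psmb10 to 17.6% to 29.8% of Psmb7 (median 21.5%).

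The 12 genes of the interferon-gamma and MHC class I list, which act in antigen presentation and its induction, summed highest in the same libraries: 46709.5 in knockout vehicle 4 and 43951.5 in knockout rapamycin 3, against 18386 to 34616 in the other 18. The 12 macrophage and leukocyte markers also summed highest there, at 27942 and 23084, against 12177 to 21855 elsewhere, and none of them was at 0 in all libraries of a group. Their part in the Psmb8 and Psmb9 values was not tested. None of the 12 interferon genes passed by limma in any of 7 comparisons, with 2 higher at an unadjusted p under 0.05 in the vehicle genotype comparison, where 19.8% of all genes were, and 0 in the other 6.

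PA28 alpha and beta are known to be induced with the immunoproteasome. Psme1 read 4154, 3235, 4664, 3490.3 and 2849 in the control vehicle libraries, against 2912, 2652, 2378, 3959.8 and 3768 in knockout vehicle. Under rapamycin Psme1 read 3406, 3645, 2845, 2464 and 2790.0 in control hearts, against 2924, 2509, 3232, 3119 and 2379.6 in knockout hearts. Psme1 stood high in knockout vehicle 4 and in control vehicle 1 and 3. Psme2 read 1145, 739.6, 1114, 819.7 and 579 in the control vehicle libraries, against 778, 563, 569, 831 and 775 in knockout vehicle. Under rapamycin Psme2 read 847, 993, 681, 532 and 740.2 in control hearts, against 707, 629.8, 742, 751 and 529.5 in knockout hearts. Psme2 has a near-identical copy, Psme2b, so its reads may be shared. Psme3 read 2221, 1903, 2729, 2099.8 and 1792 in the control vehicle libraries, against 1895, 1751, 1793, 1633 and 2164 in knockout vehicle. Under rapamycin Psme3 read 2359, 2249, 2125, 1865 and 1931 in control hearts, against 2260.3, 1857, 2131, 2392 and 1802 in knockout hearts. Psme3, not known as interferon-induced, was at its lowest in knockout vehicle 4. The largest change of the 3 was -0.30 for Psme2 in the vehicle genotype comparison (95% interval -0.69 to 0.10, limma adjusted p = 0.274), and it was -0.024 without control vehicle 1 and 3.

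The interaction, the rapamycin effect in knockout minus that in control, had a median of 0.19 over members against -0.087 over all genes, with 33 higher and 10 lower. No member passed by limma (lowest adjusted p = 0.523, where 0% of all genes were called), and 2 were higher and 1 lower at an unadjusted p under 0.05, against 2.22% and 6.07% of all genes (8.3% in all). The median was 0.0017 without control vehicle 1 and 3 and with the length score -0.042, against -0.052 and -0.059 over all genes. The extremes were Psmc3 (0.51) and Psmd4 (0.49) at the high end and Psma8 (-0.44) and Psmc6 (-0.27) at the low end. Without the 2 libraries they stood at 0.31, 0.24, -0.49 and -0.33.

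Averaged over drug arms, knockout against control had a median of -0.17 over members and 0.022 over all genes, with 39 of 43 lower. By limma no member passed (lowest adjusted p = 0.242, where 0.443% of all genes were called), and 9 were lower and 0 higher at an unadjusted p under 0.05, against 8.73% and 10.4% of all genes. Psmb5 and Psmb3 were lowest (-0.38 and -0.37) and Psmd12 and Psmd1 highest (0.12 and 0.096). Without control vehicle 1 and 3 the median was -0.067 and with the length score -0.0020, against 0.0053 and 0.0015 over all genes. Of the members, 35 lay lower without those libraries and 22 with the length score, where 6585 and 6698 of 13548 genes did. The same 4 members then stood at -0.16, -0.20, 0.084 and 0.053 without those libraries.

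Averaged over genotypes, rapamycin against vehicle had a median of -0.13 over members and 0.037 over all genes, with 34 of 43 lower. None passed by limma (lowest adjusted p = 0.211, where 0.125% of all genes were called), and 6 were lower and 0 higher at an unadjusted p under 0.05, against 4.64% and 4.6% of all genes (9.23% in all). The extremes were Psmd14 (log2 change -0.34, standard error 0.096, limma adjusted p = 0.211), Psmb10, Psmc3 (0.16) and Psmd4 (0.20). With the length score, 3 members passed beside 2.36% of all genes, Psmd14 at -0.26, Psmc3 at 0.27 and Psmd4 at 0.35. The members' median was 0.0045 without control vehicle 1 and 3, against 0.015 over all genes. Without those libraries Psmd14 stood at -0.22, Psmc3 at 0.26 and Psmd4 at 0.33.

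Genes that act with the proteasome did not pass either. Over the 7 comparisons, no gene of the 12 tested 20S chaperones and 19S-associated proteins, the 11 regulators of proteasome transcription, the 6 ubiquitin and E1 genes, the 8 shuttle factors or the 14 muscle ubiquitin ligases passed by limma. In the vehicle genotype comparison 2 higher and 2 lower, 2 and 0, 1 and 2, 1 and 2, and 3 and 1 of these lists, in that order, had an unadjusted p under 0.05, where 19.8% of all genes were higher and 12.1% lower. Smallest p values there belonged to Adrm1, a ubiquitin receptor of the cap (log2 change -0.43, adjusted p = 0.0873), and Itch, a HECT-type ubiquitin ligase (0.50, adjusted p = 0.0882). Ubb, a polyubiquitin gene, had -0.43 (adjusted p = 0.106). The lists' medians there were -0.16 for 20S chaperones and 19S-associated proteins, 0.19 for regulators, -0.28 for ubiquitin genes, -0.020 for shuttle factors and 0.13 for ligases. Leaving out control vehicle 1 and 3, they were 0.041, 0.014, -0.11, -0.097 and 0.023, and Adrm1, Itch and Ubb stood at -0.25, 0.29 and -0.26.

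Markers of other cell types were summed in the same libraries. In the vehicle genotype comparison, 6 of 6 tested erythroid transcripts lay lower and 2 of them fell: Beta-s by 2.00 on the log2 scale (limma adjusted p = 0.0289) and Hba-a2 fell by 1.80 (adjusted p = 0.0404). Erythroid transcripts summed to 60723 to 155367 in control vehicle, with the highest 2 in libraries 3 and 1, and to 13554 to 46614 in knockout vehicle. All 8 fibroblast markers lay higher, with sums of 60304 to 77469 against 84243 to 144696, and Dcn, Gsn and Pdgfra rose when averaged over drug arms (adjusted p = 0.0422, 0.0191 and 0.0391). None of these calls held without control vehicle 1 and 3: Beta-s and Hba-a2 stood at -1.52 and -1.38 (adjusted p = 0.42 and 0.515), and Dcn, Gsn and Pdgfra at 0.44, 0.47 and 0.64 (adjusted p = 0.149, 0.0893 and 0.149). All 5 tested atrial markers lay higher, with sums of 1420.3 to 6129 against 4250.5 to 66950.2, and none was called. The 8 endothelial markers had 0 called and sums of 12097 to 27867 against 17767 to 24100.0. The part of these in the members' values was not tested.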

How the data were processed

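The 20 libraries are poly(A) RNA-seq of mouse ventricles. Per the submitters' processing notes, RSEM, SAMtools and Picard 1.64 and the build mm9 were used. For the aligner and the other versions, nothing is stated in these sources. As deposited, each value is a signal: RSEM gene estimates that the authors scaled to an upper quartile near 1000, so they are not counts. Between 87.8% and 89.4% of low values were whole multiples of a library's smallest step (tolerance 0.05), which gave the implied depth.

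Values were analysed as log2(value + 1) with limma 3.58.1 in R 4.3.3 (trend, 4 group means, all 20 libraries), for 13548 genes at 10 or above in at least 5 libraries, and p-values were Benjamini-Hochberg adjusted over all of them (threshold 0.05). Changes are on the log2(value + 1) scale, which understates those of low genes. Single members were also tested by two-sided exact permutation over samples. These exact p-values were not adjusted, and 11 of 96 such tests over 24 members lay under 0.05. Some of these members were picked for extreme changes in the same libraries, so their exact p-values are a description. The scripts were tested on simulated data. Transcript lengths and promoters came from tables of another build than mm9, matched by gene, and 96.8% of tested genes had a length.

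Single values were given for the catalytic and inducible beta subunits, the activators and Psmf1, and for members past the threshold or among the 2 highest and 2 lowest changes of a comparison. Members and lists were chosen with earlier results of these data known. Alternatives were other pseudocounts, filters and scalings, a pool term, a replicate block, array weights, the length score and left-out libraries.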

Additional observations from a re-analysis of the deposited data

Results flagged for a closer look

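In 100 groups of 5 libraries, 3 held a library far from the other 4, and chance alone marks about 1 group in 20. Psmb10 read 1355.67 in knockout rapamycin 3, against 956 to 1067 in the other 4 libraries of its group. That library also ranked second of 20 for the summed interferon-gamma and MHC class I genes, at 43951.5, whose part in the Psmb10 value was not tested. Psmc1 read 3812.07 in control vehicle 3, against 2991 to 3167 in the rest of its group. Acsl1 read 16661 in control rapamycin 4, against 10518 to 12198 in the rest of its group.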

How the results depend on the processing

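No member was called in any comparison under the other pseudocounts, filters, scalings, the pool term or array weights. Nor was any called without control vehicle 1 and 3, a fit read only for the comparisons that use the control vehicle group. With the length score, 6 members were called for rapamycin in knockout hearts and 3 for rapamycin averaged over genotypes. Leaving out single libraries gave 0 to 13 members called between genotypes under vehicle and 0 in the other comparisons. The members' median between genotypes under vehicle was 0.036 with the length score and -0.33 to -0.16 with single libraries left out. For rapamycin in control hearts it was 0.021 without control vehicle 1 and 3, 0.030 with the length score, and -0.31 to -0.10 with single libraries left out. The interaction median was -0.042 with the length score and 0.10 to 0.28 with single libraries left out. The direction of some single members turned: Psmb5 between genotypes under vehicle was 0.043 with the length score, and Psma8 in the interaction was 0.017 after quantile normalization. In control hearts with rapamycin, Psme4 was -0.077 with array weights, -0.15 without control vehicle 1 and 3, and -0.074 with the length score. With single libraries left out there, Psme4 ran from -0.060 to 0.15 and Psmd7 from -0.0026 to 0.091. The cause was not tested. Quantile normalization moved the median of all genes from 0.072 to -0.036 between genotypes under vehicle and from -0.087 to 0.031 in the interaction. With the replicate number as a block, 0 members were called in each comparison; the 30 same-number pairs correlated at -0.51 to 0.43, 10 of them over 0.1, and 4 of 20 libraries lay nearest their own number. The interaction and the averages have no value from the compared groups alone. Depth limits Psma8, at a few reads per library.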
